A study of Sus scrofa with 20 samples.

Results

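The genes described here make, load and display the peptides that porcine cells show to T cells: the swine leukocyte antigen (SLA) genes, their light chain B2M, the peptide transporters and trimming enzymes, the class II chaperone CD74, the regulators NLRC5 and CIITA, and the subunits of the proteasome core with its activators. They were taken by gene name alone: every gene row whose name began with SLA-, PSMA, PSMB or PSME, or was B2M, TAP1, TAP2, TAPBP, ERAP1, ERAP2, CIITA, NLRC5 or CD74. The rule found 48 of 30345 gene rows, and 45 of the 48 had enough counts to be tested among 17745 genes. SLA-5, PSMA8 and PSMB11 were not tested, and none of them exceeded 0.378 CPM (counts scaled to library size) in any library.

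Messenger RNA was sequenced from the uterus of 20 Large White by Landrace sows, wild type per the labels, with 1 library per sow and 5 sows per group. The sows had a mean parity of 3.53 ± 1.12, and no sow ages are stated. Control sows received no semen. The other sows were inseminated, 2.53 ± 0.74 times on average, with semen of 3 Pietrain boars aged about 32 months: sows of FR1 got the sperm-rich part of the ejaculate alone, sows of FR2 also its intermediate part, and sows of FR3 also its sperm-poor part. All uteri were sampled on day 6 from estrus onset, and the study asked how the fractions alter uterine gene expression. The labels do not say which sows carried embryos, so semen and early pregnancy cannot be told apart in a comparison with control. Libraries carry the group name and the number of their column in the deposited table, which is not tied to a numbered sow.

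Class I molecules pair a heavy chain with B2M and present peptides from inside the cell to CD8 T cells on nearly all nucleated cells. The peptides are cut by the proteasome, moved into the endoplasmic reticulum by TAP1 and TAP2, and trimmed by ERAP1 and ERAP2. Interferon gamma makes cells replace the catalytic subunits PSMB5, PSMB6 and PSMB7 by PSMB8, PSMB9 and PSMB10, which gives the immunoproteasome. Class II molecules present peptides from outside the cell to CD4 T cells, mostly on professional antigen-presenting cells, and the pig is one of the species in which other cells can also carry them. In the uterus these genes lie where maternal leukocytes meet semen and the conceptus.

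Libraries held 33.0 to 62.9 M counts, and the 48 genes took 0.306% to 0.885% of them, with the highest shares in CONTROL_3 and CONTROL_4. Marker genes of epithelium were detected in every library, at a summed 1525 to 7218 CPM over 10 genes. The 5 smooth muscle markers summed to 660 CPM in CONTROL_1, against 2833 to 23638 CPM in the other libraries. Markers of leukocytes as a whole summed to 38.3 to 229 CPM over 4 genes. Among immune markers, the dendritic cell gene CLEC9A and the B cell gene MS4A1 were each at 0 counts in 11 libraries, and the neutrophil gene S100A8 in 9. Other genes of these lists were detected in every library: ITGAX, BATF3 and CD83 for dendritic cells, CD79A and CD79B for B cells, and CSF3R for neutrophils.

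Against control, the inseminated sows had lower levels of many of these genes, with falls in class I, the immunoproteasome and the constitutive proteasome. Of the 45 tested genes 16 fell and 1 rose in edgeR's quasi-likelihood test at a Benjamini-Hochberg adjusted p below 0.05. Among all genes tested 11.1% were called, 8.2% lower and 2.87% higher. The fitted log2 fold change was below 0 in 43 of 45 genes, against 54% of all genes, and the median was -0.57, against -0.05 over all genes. In whole tissue, fewer cells of a type and less RNA per cell cannot be told apart. No gene separated the groups completely: among all genes tested, 0.203% lay lower in every inseminated library than in any control. PSMB1 and PSMB10 came nearest, with 4 of 5 controls above every inseminated library.

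**Figure D1:**
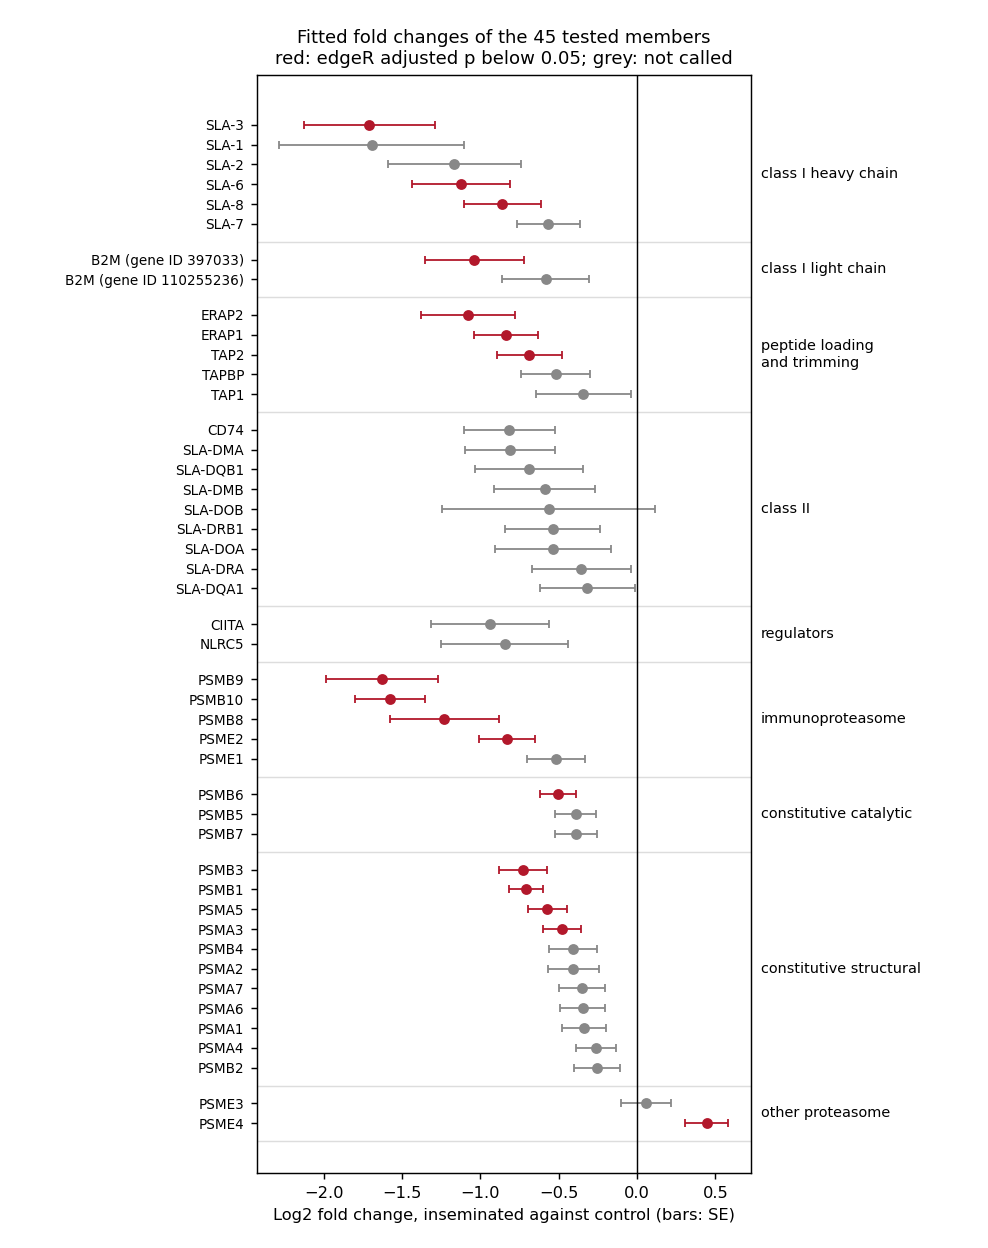
Fitted log2 fold change of the 45 tested genes in 15 inseminated against 5 control libraries, grouped by role, with bars of 1 standard error. Red points had an edgeR adjusted p below 0.05; PSME4 is the red point right of 0, and the 9 class II genes are grey.

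Results changed with the control libraries used. The count of 17 calls fell to 10 without CONTROL_3 and to 11 without CONTROL_4, and rose to 27 without CONTROL_2. PSMB1, PSMB3, PSMB6, PSMB9, PSMB10, PSMA5 and PSME2 were called in each of the 20 fits that left out 1 library. When each group had its own spread in limma-voom, only PSMB1 and PSMB10 were called. The shares of all genes called in these fits are not given here, so the moves cannot be read as particular to these genes.

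The classical class I heavy chains SLA-1, SLA-2 and SLA-3 carry the peptides shown to CD8 T cells. Levels of SLA-3 in CONTROL_1 to CONTROL_5 were 167, 428, 964, 181 and 108 CPM. They were 28.9, 121, 215, 75.2 and 175 CPM in FR1, 120, 70.1, 44.2, 58.2 and 116 CPM in FR2, and 136, 201, 196, 118 and 64.7 CPM in FR3. CONTROL_3 and CONTROL_2 stood above every inseminated library and the other controls lay among them. SLA-3 fell by 1.71 ± 0.42 log2 units (SE, edgeR adjusted p = 0.0123). Without CONTROL_3 it stood at -0.98 and was no longer called.

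SLA-1 was at 305, 89.2, 357, 1261 and 226 CPM in the 5 controls. It ranged from 20.3 to 524 CPM in inseminated libraries with a median of 124 CPM, and the highest was FR1_5. The groups overlapped, with CONTROL_4 alone above every inseminated library. Of the 15 inseminated libraries 14 lay below the control median and 6 below every control. The difference of -1.69 ± 0.59 did not pass (edgeR adjusted p = 0.0714). SLA-2 was at 131, 173, 1138, 688 and 291 CPM in control and at 83.7 to 536 CPM after insemination, with a median of 182 CPM. Only CONTROL_3 and CONTROL_4 lay above all inseminated libraries for SLA-2, and its difference of -1.17 ± 0.42 did not pass (edgeR adjusted p = 0.0834). EdgeR called SLA-1 lower when CONTROL_2 was left out, and SLA-2 when CONTROL_1 or CONTROL_2 was.

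The share of the 3 classical genes that each took in their common count varied widely between sows. SLA-1 held 6.87% of it in FR3_3 and 59.2% in CONTROL_4, while SLA-3 held 8.50% in CONTROL_4 and 62.0% in CONTROL_2. These genes are near-identical and differ between animals, so the estimated counts of each one are uncertain. Their sum, fitted after the files had been seen, was at 603, 690, 2459, 2131 and 624 CPM in the 5 controls and at 204 to 1236 CPM after insemination, with a median of 357 CPM. CONTROL_3 and CONTROL_4 stood above every inseminated library, and the other 3 controls lay among them. The sum fell by 1.48 ± 0.36 log2 units (edgeR adjusted p = 0.0130), and it was not called without CONTROL_3 (-1.14, edgeR adjusted p = 0.0822) or without CONTROL_4 (-1.23, edgeR adjusted p = 0.0518). With CONTROL_1 and CONTROL_5 as the only controls it stood at -0.38 ± 0.45.

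Among the nonclassical heavy chains, SLA-6 and SLA-8 fell and SLA-7 was not called with all libraries. EdgeR called SLA-7 lower when CONTROL_1, CONTROL_2 or CONTROL_5 was left out. SLA-6 was at 50.8, 50.0, 162, 58.8 and 34.6 CPM in control, against 16.8 to 63.0 CPM and a median of 28.7 CPM after insemination. Its log2 fold change was -1.12 ± 0.31 (edgeR adjusted p = 0.0257). SLA-8 was at 42.8, 38.4, 110, 46.5 and 36.2 CPM in control, against 15.1 to 63.5 CPM and a median of 30.6 CPM. It fell by 0.86 ± 0.25 log2 units (edgeR adjusted p = 0.0295). In both genes CONTROL_3 was the single control above every inseminated library. Without CONTROL_3 they stood at -0.58 and -0.45, neither of them called. RefSeq gene positions (assembly Sscrofa11.1) place SLA-8, SLA-7 and SLA-6 next to each other, in that order, on chromosome 7.

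B2M, the light chain shared by class I molecules, has 2 rows in the table, which the RefSeq gene table puts on chromosome 1 with 1 gene between them. The row with gene ID 397033 was at 401, 319, 1386, 945 and 807 CPM in control. After insemination it ran from 162 to 743 CPM with a median of 303 CPM. The 3 higher controls lay above every inseminated library and the other controls among them. This row fell by 1.04 ± 0.32 log2 units (edgeR adjusted p = 0.0406), and the call was lost in 11 of the 20 fits without 1 library, with -0.74 without CONTROL_3 as the smallest difference. The other row, gene ID 110255236, was at 367, 311, 978, 611 and 653 CPM in control and 156 to 682 CPM after insemination, with a log2 difference of -0.58 ± 0.28 (edgeR adjusted p = 0.189). With both rows summed, after the files had been seen, the difference was -0.82 ± 0.30 and did not pass (edgeR adjusted p = 0.0839). That sum was called without CONTROL_1 (-0.97) or without CONTROL_2, and stood at -0.54 without CONTROL_3.

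Of the 5 genes that load and trim class I peptides, ERAP1, ERAP2 and TAP2 fell. ERAP1 was at 46.5, 40.5, 37.0, 70.9 and 28.8 CPM in control, and at 14.9 to 40.6 CPM after insemination with a median of 23.2 CPM. CONTROL_1 and CONTROL_4 lay above every inseminated library, and its log2 fold change was -0.84 ± 0.21 (edgeR adjusted p = 0.0125). ERAP2 was at 19.7, 10.8, 17.0, 56.6 and 8.43 CPM in control and at 7.52 to 16.4 CPM after insemination, and its log2 fold change was -1.08 ± 0.30 (edgeR adjusted p = 0.0245). Both calls were lost without CONTROL_4, at -0.60 for ERAP1 and -0.37 for ERAP2.

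TAP2, a chain of the peptide transporter, was at 53.2, 37.4, 79.3, 73.6 and 40.1 CPM in control and at 19.0 to 50.7 CPM after insemination. CONTROL_1, CONTROL_3 and CONTROL_4 lay above every inseminated library. TAP2 fell by 0.69 ± 0.21 log2 units (edgeR adjusted p = 0.0391), a call lost in 8 of the 20 fits without 1 library, with -0.55 without CONTROL_3. Its partner chain TAP1 was at 58.0, 48.0, 176, 74.0 and 89.7 CPM in control and at 33.7 to 129 CPM after insemination. Only CONTROL_3 stood clear of the rest for TAP1, with a log2 difference of -0.34 ± 0.30 (edgeR adjusted p = 0.516) that turned to 0.05 without that library. TAPBP, which holds class I molecules to the transporter, was at 192 to 464 CPM in control and 132 to 343 CPM after insemination, a log2 difference of -0.52 ± 0.22 (edgeR adjusted p = 0.135).

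The 10 epithelial markers had 6 members lower and 0 higher in the inseminated sows, against 8.2% and 2.87% of all genes called. Their summed level was 3945 to 7218 CPM in control and 1525 to 6062 CPM after insemination. CONTROL_4 had the lowest epithelial sum of the controls, and CONTROL_1 the highest. Their summed classical class I genes were at 2131 and 603 CPM. Across the 20 libraries the mean log2 CPM of SLA-1, SLA-2 and SLA-3 followed that of the epithelial markers with a Pearson r of 0.81, and with 0.73 over the 15 inseminated libraries. The corresponding r with leukocyte markers as a whole was 0.64 over the 20 libraries. These leukocyte markers summed highest in CONTROL_4 among controls and in FR1_5 among inseminated libraries. These libraries share normalization and tissue makeup, so the coefficients are descriptions. The part of epithelial or leukocyte content in the class I differences was not tested.

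None of the 9 class II genes was called in edgeR: 2 had an unadjusted p below 0.05, DESeq2 called 2 and limma-voom 0. All 9 differences were below 0, with a median of -0.56. CD74, the invariant chain that escorts class II molecules, was at 262, 181, 1047, 753 and 347 CPM in control, against 213 to 455 CPM and a median of 292 CPM after insemination. CONTROL_3 and CONTROL_4 stood above every inseminated library, CONTROL_2 below every one, and the difference of -0.82 ± 0.29 did not pass (edgeR adjusted p = 0.0773). SLA-DRA, the alpha chain of the DR molecule, was at 80.8, 49.7, 283, 160 and 80.9 CPM in control and 51.2 to 197 CPM after insemination. Its difference was -0.36 ± 0.31 (edgeR adjusted p = 0.516), and 0.13 without CONTROL_3. EdgeR called CD74 when CONTROL_1 or CONTROL_2 was left out, and SLA-DMA when CONTROL_2 or CONTROL_5 was. With all libraries DESeq2 called CD74 and SLA-DMA, a chain of the peptide editor DM, at 7.87 to 42.1 CPM in control and 8.25 to 23.7 CPM after insemination.

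For mean class II levels r was 0.88 with the 4 leukocyte genes and 0.50 with the epithelial markers over 20 libraries, and 0.92 and 0.66 over the 15 inseminated libraries. The difference between these coefficients was not tested. No leukocyte, dendritic cell, T and NK cell or B cell marker was called in edgeR, among 4, 6, 10 and 3 tested genes. None of these had an unadjusted p below 0.05, and DESeq2 and limma-voom also called 0. Of the 7 macrophage and monocyte markers edgeR called 1, CD14, lower, while DESeq2 called 0 lower and 1, CD163, higher. Of 3 tested neutrophil markers CSF3R was called lower, and of 3 plasma cell markers JCHAIN was called higher. Over all genes tested edgeR called 8.2% lower and 2.87% higher. Leukocyte markers summed to 38.3 to 229 CPM in control and 38.8 to 132 CPM after insemination, highest in CONTROL_4 and FR1_5.

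NLRC5, the transactivator of class I genes, was at 7.58, 4.32, 39.9, 13.8 and 6.04 CPM in control and 3.95 to 20.2 CPM after insemination. CIITA, the master regulator of class II genes, was at 5.26, 4.60, 30.5, 13.2 and 2.66 CPM in control and 3.35 to 10.4 CPM after insemination. CONTROL_3 alone stood above every inseminated library for NLRC5, and CONTROL_3 and CONTROL_4 for CIITA. The differences of -0.84 ± 0.41 for NLRC5 and -0.94 ± 0.38 for CIITA did not pass (edgeR adjusted p = 0.193 and 0.117). CIITA was called lower when CONTROL_5 was left out. Over the 20 libraries the median r of NLRC5 was 0.74 with the 6 class I heavy chains and 0.70 with the 9 class II genes. For CIITA these medians were 0.51 and 0.66. Within the 15 inseminated libraries they were 0.64 and 0.43 for NLRC5, and 0.13 and 0.32 for CIITA. As Spearman rank coefficients over the 20 libraries the medians were 0.52 and 0.58 for NLRC5, and 0.16 and 0.48 for CIITA. Over the 15 they were 0.51 and 0.37 for NLRC5, and -0.05 and 0.225 for CIITA. The differences between these medians were not tested.

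In the immunoproteasome 4 of 5 genes fell, and the median log2 fold change was -1.23. PSMB10, which replaces PSMB7, was at 40.5, 26.7, 75.3, 99.3 and 51.6 CPM in control. It was at 12.2, 14.8, 27.7, 15.2 and 24.3 CPM in FR1, 12.0, 17.7, 15.2, 15.3 and 16.8 CPM in FR2, and 21.1, 20.0, 34.7, 25.3 and 30.4 CPM in FR3. Every control but CONTROL_2 exceeded every inseminated library. PSMB10 fell by 1.58 ± 0.22 log2 units (edgeR adjusted p = 0.000246). The control mean was 58.7 ± 28.8 CPM (SD, n = 5) and the inseminated mean 20.2 ± 6.91 CPM (SD, n = 15).

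PSMB9, which replaces PSMB6, was at 24.6, 8.00, 47.0, 42.8 and 19.9 CPM in control. It was at 3.84, 7.18, 10.9, 4.37 and 26.7 CPM in FR1, 4.36, 6.28, 5.42, 6.85 and 9.06 CPM in FR2, and 12.0, 10.5, 14.4, 8.65 and 12.0 CPM in FR3. FR1_5 was the only inseminated library above 14.4 CPM, and CONTROL_2 lay among the inseminated libraries. PSMB9 fell by 1.63 ± 0.36 log2 units (edgeR adjusted p = 0.00599).

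PSMB8, which replaces PSMB5, was at 68.3, 18.1, 94.6, 130 and 60.9 CPM in control. It was at 15.3, 22.1, 47.7, 17.6 and 86.0 CPM in FR1, 23.6, 27.8, 16.0, 25.1 and 25.6 CPM in FR2, and 41.7, 42.0, 38.4, 21.1 and 34.6 CPM in FR3. Apart from FR1_5, each inseminated library was below 4 of the 5 controls. PSMB8 fell by 1.23 ± 0.35 log2 units (edgeR adjusted p = 0.0272), and was not called without CONTROL_3 (-1.15) or without CONTROL_4 (-0.93). In the RefSeq gene table PSMB8 and PSMB9 are interleaved with the transporter genes on chromosome 7, in the order TAP2, PSMB8, TAP1, PSMB9. Of these neighbours TAP1 was the one not called.

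PSME1 and PSME2 form the ring-shaped activator that opens the proteasome core in interferon-treated cells. PSME2 was at 142, 62.3, 107, 127 and 124 CPM in control, against 42.1 to 120 CPM and a median of 58.5 CPM after insemination. CONTROL_1, CONTROL_4 and CONTROL_5 lay above every inseminated library. PSME2 fell by 0.83 ± 0.18 log2 units (edgeR adjusted p = 0.00527). PSME1 was at 399, 147, 246, 333 and 259 CPM in control and 141 to 344 CPM after insemination, and its difference of -0.52 ± 0.18 did not pass (edgeR adjusted p = 0.0771). It was called lower when CONTROL_2 was left out.

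The constitutive proteasome was lower by smaller amounts, with 5 of 14 genes called lower, 0 higher and a median log2 fold change of -0.40. PSMB1, a structural beta subunit, was at 121, 98.2, 132, 108 and 152 CPM in control. It was at 76.5, 64.1, 72.0, 69.3 and 73.3 CPM in FR1, 69.0, 66.7, 77.1, 68.5 and 69.9 CPM in FR2, and 72.4, 67.2, 106, 83.5 and 91.8 CPM in FR3. FR3_3 was the only inseminated library above any control. PSMB1 fell by 0.71 ± 0.11 log2 units (edgeR adjusted p = 0.000431).

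PSMB3, another structural beta subunit, was at 83.6, 55.1, 93.3, 64.1 and 105 CPM in control and 37.0 to 79.0 CPM after insemination, and fell by 0.73 ± 0.15 log2 units (edgeR adjusted p = 0.00454). PSMA5 and PSMA3 belong to the outer alpha rings. PSMA5 was at 38.0 to 69.6 CPM in control and 31.9 to 52.9 CPM after insemination, with a log2 fold change of -0.57 ± 0.12 (edgeR adjusted p = 0.00494). PSMA3 was at 69.4 to 120 CPM in control and 54.1 to 88.0 CPM after insemination, with a log2 fold change of -0.48 ± 0.12 (edgeR adjusted p = 0.0164) that was not called without CONTROL_1 (-0.38). CONTROL_2 was the lowest control in all of these structural subunits.

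Among the constitutive catalytic subunits PSMB6 fell, and PSMB5 and PSMB7 did not pass. PSMB6, the caspase-like subunit, was at 144, 89.6, 106, 111 and 117 CPM in control and 62.7 to 110 CPM after insemination, a log2 fold change of -0.50 ± 0.11 (edgeR adjusted p = 0.00802). PSMB5, the chymotrypsin-like subunit, was at 168, 105, 145, 129 and 164 CPM in control and 87.6 to 159 CPM after insemination, a difference of -0.39 ± 0.13 (edgeR adjusted p = 0.0615). PSMB7, the trypsin-like subunit, was at 150, 91.9, 118, 113 and 172 CPM in control and 81.7 to 152 CPM after insemination, a difference of -0.39 ± 0.13 (edgeR adjusted p = 0.0658). Both PSMB5 and PSMB7 were called lower when CONTROL_2 was left out.

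PSME4, a mainly nuclear activator of the proteasome core, was the single member that rose. It was at 64.1, 37.5, 39.4, 43.6 and 48.1 CPM in control and at 45.2 to 86.6 CPM after insemination with a median of 60.7 CPM. CONTROL_1 and CONTROL_5 lay within the inseminated range and the other controls below it. The rise was 0.45 ± 0.14 log2 units (edgeR adjusted p = 0.0438), and it was lost in 15 of the 20 fits without 1 library, at 0.38 without CONTROL_2 as the smallest. PSME3, the nuclear homologue of PSME1 and PSME2, had a difference of 0.05 ± 0.16 (edgeR adjusted p = 0.871).

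Set against its constitutive counterpart within each library, each catalytic immunoproteasome subunit had control and inseminated ranges that overlapped. PSMB10 was at 26.9, 29.0, 64.0, 88.2 and 30.0 counts per 100 counts of PSMB7 in control, and at 13.3 to 30.7 after insemination. CONTROL_3 and CONTROL_4 lay far above the inseminated libraries and the other 3 controls within the upper part of their range. For PSMB9 per 100 counts of PSMB6 the controls were at 17.0, 8.93, 44.4, 38.4 and 16.9 and the inseminated libraries at 4.88 to 31.5. For PSMB8 per 100 counts of PSMB5 they were at 40.7, 17.3, 65.3, 100 and 37.1, against 13.7 to 69.0. FR1_5 was the highest inseminated library in the ratios of PSMB8 and PSMB9, and FR3_5 in that of PSMB10. These ratios were not tested between groups.

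The mean level of the immunoproteasome moved with markers of several cell types. Over the 20 libraries r was 0.77 with epithelial markers, 0.73 with T and NK cell markers and -0.78 with stromal fibroblast markers, and over the 15 inseminated libraries it was 0.74, 0.88 and -0.58. Of the 6 stromal markers 2, PDGFRA and LUM, were called higher after insemination in edgeR, against 2.87% of all genes. DESeq2 and limma-voom each called COL1A1 and COL3A1 as well, 4 in all. The list summed to 1257 to 6229 CPM in control and 3573 to 13433 CPM in inseminated libraries. The part of these cell types in the immunoproteasome differences was not tested.

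**Figure D2:**
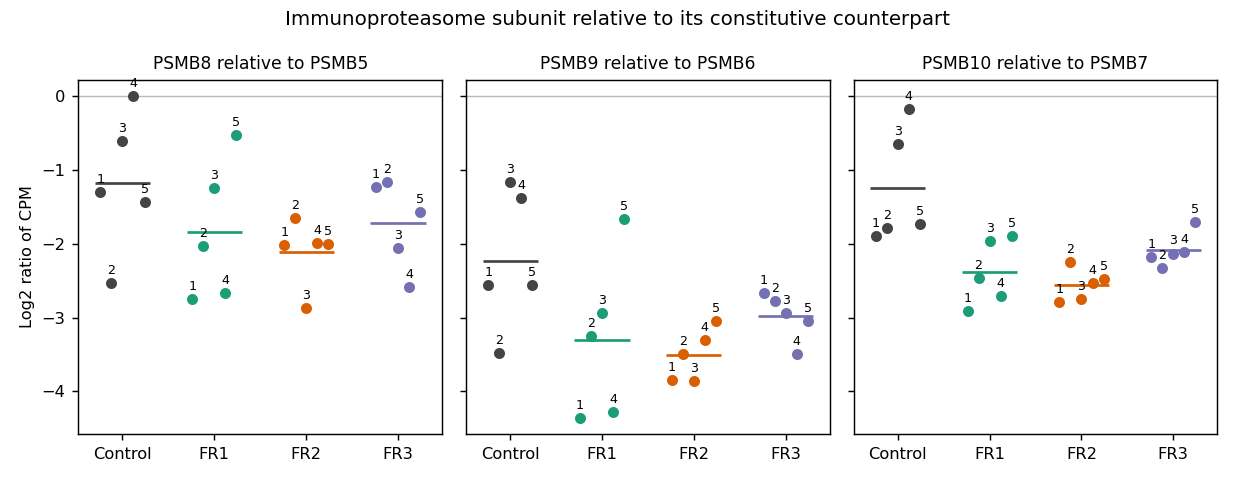
Log2 ratio of CPM of each immunoproteasome subunit to the constitutive subunit it replaces, with 1 point per library, labelled by its number within the group, and lines for group means. CONTROL_3 and CONTROL_4 have the highest ratios of PSMB9 and PSMB10, and CONTROL_2 lies below the mean of FR2 for PSMB8.

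The control libraries showed 2 patterns. CONTROL_3 and CONTROL_4 were highest in class I, class II and the immunoproteasome, with a mean log2 CPM over the 3 classical heavy chains of 9.52 and 9.08, against 7.55 to 7.59 in the other controls. CONTROL_1 and CONTROL_5 were highest in the constitutive proteasome, with 7.12 in each, against 6.37 to 6.68 in the other controls and 6.19 to 6.90 after insemination. CONTROL_2 was lowest of the controls in class II (3.89), the immunoproteasome (5.02) and the constitutive proteasome (6.37). Among inseminated libraries FR1_5 was highest in classical class I (8.52) and the immunoproteasome (5.94), and FR3_3 in class II (5.43) and the constitutive proteasome (6.90).

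**Figure D3:**
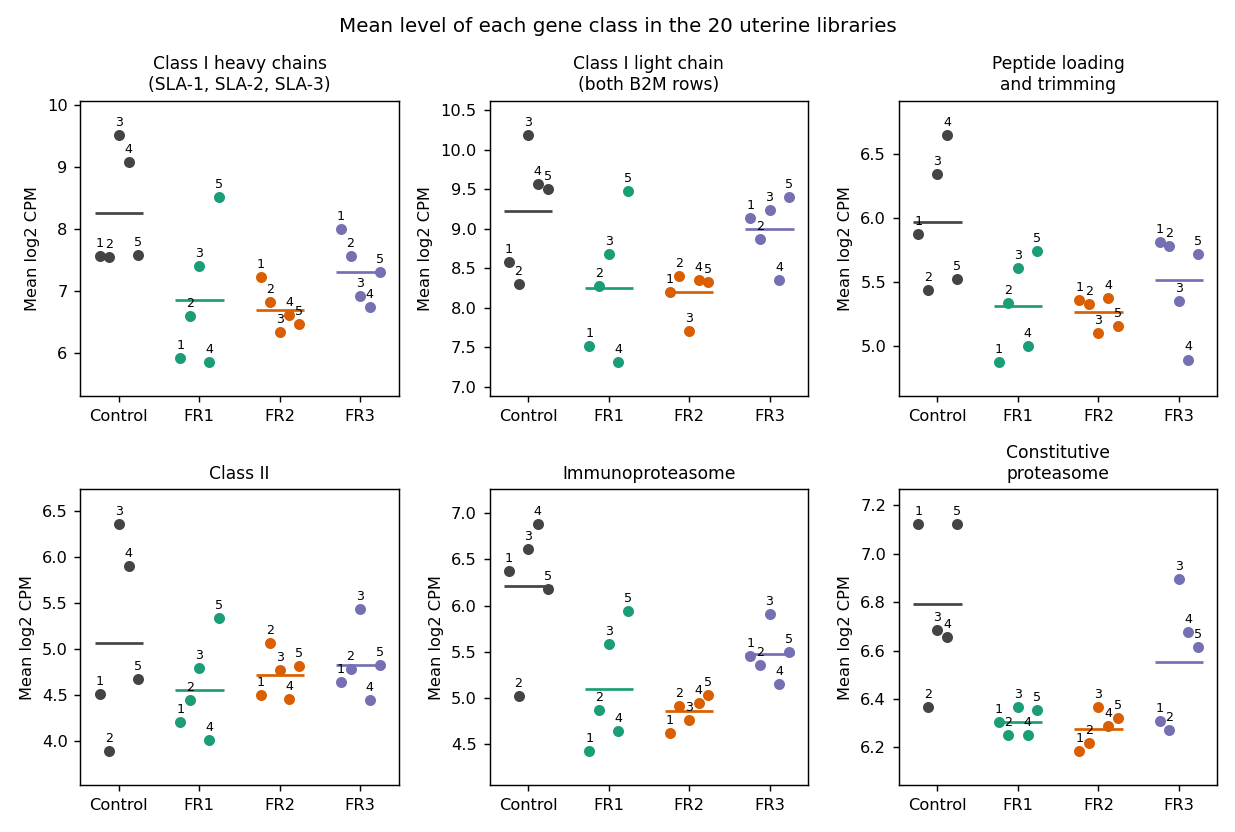
Mean log2 CPM of the genes of each class in each of the 20 libraries, with the library's number within its group beside the point and a line at the group mean. In the upper row and class II CONTROL_3 and CONTROL_4 are the highest controls, and in the constitutive proteasome CONTROL_1 and CONTROL_5 are.

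The 9 handling and immediate early genes summed to 192, 1699, 3365, 707 and 298 CPM in CONTROL_1 to CONTROL_5 and to 217 to 574 CPM after insemination. CONTROL_2, CONTROL_3 and CONTROL_4 lay above every inseminated library and the other controls within or below their range. Of these 9 genes 6 fell and 0 rose in the inseminated sows, against 8.2% and 2.87% of all genes called lower and higher. The 4 neutrophil markers summed to 81.3 CPM in CONTROL_3, against 1.09 to 3.56 CPM in the other controls and 0.659 to 6.11 CPM after insemination. That sum rested on CSF3R, which reached 77.3 CPM, while S100A8, S100A9 and S100A12 were at most at 0.548, 3.05 and 0.764 CPM in any library. The part of either list in the SLA differences was not tested. CONTROL_1, which with CONTROL_5 was highest in the constitutive proteasome, had the least smooth muscle signal. Over the 20 libraries r between the constitutive proteasome and the smooth muscle markers was -0.29, and 0.03 over the 15 inseminated libraries, and its part in the differences was not tested.

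A fit with CONTROL_1 and CONTROL_5 as the only controls kept the controls highest in the constitutive proteasome. It dropped CONTROL_3 and CONTROL_4, the highest in class I, class II and the immunoproteasome. It also dropped CONTROL_2, the lowest control in class II, the immunoproteasome and the constitutive proteasome. That choice was made with earlier results known and itself sets the classes apart, so the values describe only how far the results rest on the controls. Of 14 constitutive proteasome genes 11 were called lower, with a median of -0.72, against 10 and -0.50 without CONTROL_2 alone. PSMB10 stood at -1.21 and PSME2 at -1.05, both called, and the other 3 immunoproteasome genes were not. None of the 13 class I genes for heavy chains, B2M, loading and trimming was called by edgeR in that fit, and 1 had an unadjusted p below 0.05. None of the 9 class II genes was called either, with 0 at an unadjusted p below 0.05, and 7 of the 9 differences were above 0, with a median of 0.22. PSMB1 was at -0.85 and called. The share of all genes called in either fit is not given here, so these counts have no background to be read against.

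**Figure D4:**
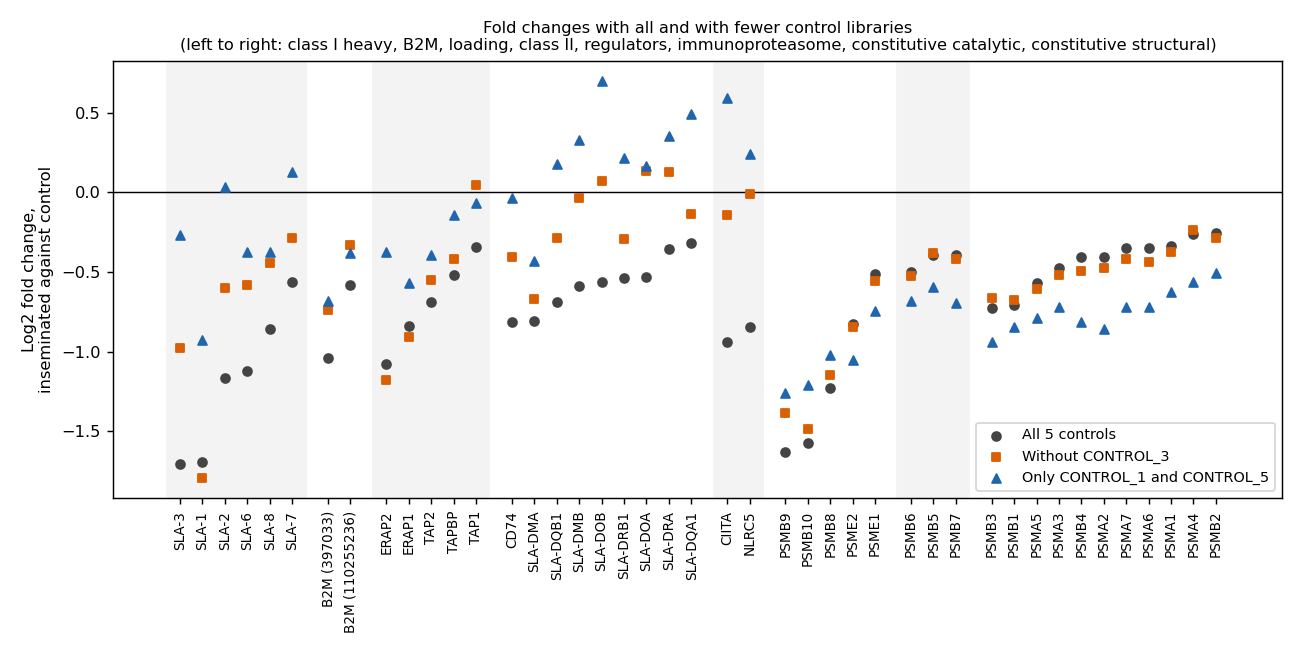
Log2 fold change of 43 genes, inseminated against control, with all 5 controls (circles), without CONTROL_3 (squares) and with CONTROL_1 and CONTROL_5 as the only controls (triangles). Triangles of the class II genes lie mostly above 0, and those of the constitutive proteasome lie below the circles.

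Across the 20 libraries the classical class I mean followed that of the loading genes with r = 0.91, B2M with 0.87, the immunoproteasome with 0.83 and class II with 0.73. With the constitutive proteasome r was 0.33. Within the 15 inseminated libraries the values were 0.87, 0.85, 0.76, 0.59 and 0.06 in the same order. As Spearman rank coefficients, in that order, they were 0.91, 0.85, 0.82, 0.52 and 0.46 over the 20 libraries. Over the 15 they were 0.88, 0.86, 0.75, 0.58 and 0.20. The immunoproteasome itself followed the constitutive proteasome with a Pearson r of 0.72 over 20 and 0.57 over 15 libraries. All points share libraries and scaling, so these are descriptions.

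Each fraction was then set against the same 5 controls, so the 3 comparisons share them. In FR1, 5 of 45 genes fell, with 2.6% of all genes called and 1.99% called lower: PSMB10 (-1.64 ± 0.30), PSMB1 (-0.79 ± 0.14), PSMA5 (-0.70 ± 0.15), ERAP1 (-1.07 ± 0.27) and PSME2 (-0.90 ± 0.23), each a log2 fold change with its SE. In FR2, 13 of 45 fell, with 5.55% of all genes called, 3.98% lower and 1.57% higher. They were PSMB10 (-1.93), PSMB1 (-0.80), PSMB3 (-0.96), PSMB6 (-0.68), PSME2 (-1.06), PSMB9 (-2.15), PSMA5 (-0.64), SLA-3 (-2.18), B2M with gene ID 397033 (-1.53), SLA-6 (-1.49), PSMB8 (-1.65), TAP2 (-0.95) and SLA-8 (-1.11). In FR3, 2 of 45 fell, with 4.27% of all genes called, 2.85% lower and 1.43% higher: PSMB10 (-1.16 ± 0.30) and PSMB1 (-0.54 ± 0.14), both at an edgeR adjusted p of 0.0363. EdgeR called no gene higher than control in any fraction with all libraries in the fit, and PSME4 stood at 0.51, 0.48 and 0.35 in FR1, FR2 and FR3. PSME4 was called higher by DESeq2 in FR1, and by edgeR in FR1 and FR2 when CONTROL_1 was left out.

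These counts moved with single libraries. They ran from 2 to 11 in FR1, from 5 to 21 in FR2 and from 0 to 5 in FR3 when 1 library of the groups compared was left out. For FR1 the lowest count came without FR1_1, FR1_2 or FR1_4 and the highest without CONTROL_2; counts of 3 came without CONTROL_3, CONTROL_4 or FR1_5. For FR2 the lowest, 5, came without FR2_1 and the highest without CONTROL_2; leaving out CONTROL_3 gave 7, and leaving out FR2_2, FR2_3, FR2_4 or FR2_5 gave 6 or 7. For FR3 the count was 0 without CONTROL_3, CONTROL_4, FR3_1, FR3_2 or FR3_5, 3 without CONTROL_2, and 5 without CONTROL_5. In fits of only the libraries compared edgeR called 0 genes of the 45 in each fraction, with 20, 29 and 8 of 45 at an unadjusted p below 0.05 in FR1, FR2 and FR3. The corresponding shares over all genes in the fits of this paragraph are not given here, so the counts have no background.

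Between the fractions no gene of the 45 passed in edgeR, DESeq2 or limma-voom. At an unadjusted p below 0.05 edgeR gave 0 genes for FR2 against FR1, 8 for FR3 against FR2 and 2 for FR3 against FR1. Over all genes tested 0%, 0.00564% and 0% were called. The log2 difference was above 0 in 41 of 45 genes for FR3 against FR2, with a median of 0.33, against 0.01 over all genes. The smallest p belonged to PSMB10, with a difference of 0.77 and a 95% interval from 0.15 to 1.40, to PSMA2 with 0.52 (0.10 to 0.95) and to B2M with gene ID 397033 with 1.04 (0.18 to 1.91). After adjustment none passed (edgeR adjusted p = 0.666 for the B2M row). For FR3 against FR2 the median log2 difference was 0.67 over the 10 epithelial markers and -0.37 over the 6 stromal fibroblast markers. The median epithelial sum was 5481 CPM in FR3 and 2902 CPM in FR2. The part of these cell types in the differences was not tested.

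For FR2 against FR1 the smallest p belonged to SLA-8 (-0.54, interval -1.20 to 0.12), PSMB9 (-0.73, interval -1.71 to 0.26) and PSMB8 (-0.68, interval -1.62 to 0.27). For FR3 against FR1 they belonged to PSMA2 (0.55, interval 0.13 to 0.98), PSMA6 (0.45, interval 0.08 to 0.82) and PSMA5. SLA-1 had a difference of -0.01 between FR3 and FR1 with an interval from -1.64 to 1.63, so even a large difference in this gene was not detectable with 5 sows per group. Intervals were narrower in other heavy chains, from -0.38 to 0.69 for SLA-7 and from -0.99 to 0.32 for SLA-8.

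Other genes of the pathways were taken from lists, and edgeR called no gene of these lists higher in the inseminated sows. In the interferon gamma pathway 2 of 10 tested genes fell, against 8.2% of all genes called lower. IRF1, a transcription factor that interferon gamma induces, was at 18.7, 23.9, 103, 66.4 and 22.0 CPM in control and fell by 1.44 log2 units (edgeR adjusted p = 0.00387), or by 0.94 without CONTROL_3. SOCS1, which dampens cytokine signalling, was at 366 CPM in CONTROL_3 and 4.05 to 25.1 CPM in the other controls. Its log2 fold change of -4.38 shrank to -1.58 without CONTROL_3. IFNG, the gene of interferon gamma itself, was at 0 counts in 13 libraries and at most at 0.436 CPM.

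Of the 12 tested interferon-induced genes that do not act in presentation 5 fell, against 8.2% of all genes called lower. The median over the 12 was -1.06. DESeq2 called 3 of the 12 lower and limma-voom 0. With all controls GBP2 stood at -1.71, GBP1 at -1.87, ISG15 at -1.98 and CXCL10 at -2.54 on the log2 scale. Without CONTROL_3, 1 of the 5 was still called: ISG15 was at -2.09, while GBP2 was at -0.29, GBP1 at -0.047 and CXCL10 at 0.11. ISG15 was in turn not called without CONTROL_5 (-0.98).

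Of 9 folding and loading partners of class I molecules 3 fell, against 8.2% of all genes called lower. CALR fell by 0.70, HSPA5 by 0.91 and PDIA3 by 0.50 on the log2 scale, all chaperones or oxidoreductases of the endoplasmic reticulum. PDIA3 was not called without CONTROL_3 (-0.43) or CONTROL_4 (-0.42). Of 6 class II processing genes 3 fell, against the same 8.2%, and DESeq2 also called 1, the protease gene CTSL, higher. The lysosomal reductase IFI30 fell by 1.26, but was at -0.73 and not called without CONTROL_3. The proteases LGMN and CTSD had log2 fold changes of -0.56 and -0.60, and both calls were lost without CONTROL_3 (-0.50 and -0.47) or CONTROL_4 (-0.43 and -0.53).

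None of 7 factors that bind class II promoters was called in edgeR, where 2 had an unadjusted p below 0.05, and none of 2 tested genes for other presenting molecules, where 0 had. DESeq2 and limma-voom called 0 in both lists. Of 21 genes of the regulatory cap that feeds proteins into the core 3 fell, against 8.2% of all genes called lower, with a median of -0.21. PSMC3 fell by 0.58 and ADRM1 by 0.61 on the log2 scale, while PSMC1, at -0.32, was not called in 13 of the 20 fits without 1 library, among them that without CONTROL_1 (-0.24). Of 9 assembly and control genes 3 fell, against the same 8.2%. They were the assembly chaperone PSMG4 (-0.78), AKIRIN2, which carries proteasomes into the nucleus (-0.74), and the stress transcription factor NFE2L2 (-1.20, or -0.74 without CONTROL_3). With CONTROL_1 and CONTROL_5 as the only controls, 3 of the 19 genes of these lists called with all controls remained called: CALR, PSMG4 and ISG15.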

How the data were processed

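Polyadenylated RNA from uterine tissue of 20 sows was sequenced in pairs. The submitters' processing notes name CASAVA, STAR 2.7.9a and Salmon 1.10.1. The build, the annotation and how strand was set are not given in the sources used here, and the labels' protocols name both a stranded and an unstranded second-strand step. The authors deposited expected counts (Salmon estimates of reads per gene, unscaled), which were rounded here. Salmon divides reads between similar transcripts, which makes the SLA-1, SLA-2, SLA-3 and B2M rows uncertain. A further 24 rows that name no gene (0.0036% to 0.0133% of counts) were left out.

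Counts were fitted with edgeR 4.0.16 in R 4.3.3 (filterByExpr, TMM factors, quasi-likelihood test, 2-sided, 20 libraries in 1 fit, 16 residual degrees of freedom). P-values were adjusted by Benjamini and Hochberg's method over 17745 genes. Levels are TMM-scaled CPM, and class means use log2 CPM with a prior count of 2. Replicates are separate sows, and columns give the group but not the sow. RefSeq names of assembly Sscrofa11.1 matched all 48 gene identifiers and symbols.

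The genes, lists and left-out library sets were chosen with earlier results of these data known. Values are given per library for a fixed panel of 20 genes and for up to 12 further called genes, for called genes elsewhere or the 3 with the smallest p, and for up to 4 genes per pathway list. Alternatives were other scaling factors, DESeq2 1.42.0, limma-voom (limma 3.58.1), filters, thresholds, fits of only the groups compared, and left-out libraries. The test was checked on counts simulated with the same spread in every group, so the check does not cover groups that differ in spread.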

Additional observations from a re-analysis of the deposited data

Results flagged for a closer look

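In 116 sets of 5 libraries, 29 genes in each of 4 groups, the library farthest from the rest was compared with the spread of its group, and 11 stood apart. Chance alone singles out about 1 in 20 such sets where values follow a normal distribution, and the share for skewed CPM was not computed.

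CONTROL_3 stood apart in SLA-8 at 110 CPM (other controls 36.2 to 46.5 CPM), in SLA-6 at 162 CPM (34.6 to 58.8 CPM) and in NLRC5 at 39.9 CPM (4.32 to 13.8 CPM). CONTROL_4 did in SLA-1 at 1261 CPM (89.2 to 357 CPM) and in ERAP2 at 56.6 CPM (8.43 to 19.7 CPM). FR1_5 did in SLA-1 at 524 CPM (20.3 to 86.3 CPM in the rest of FR1) and in SLA-8 at 63.5 CPM (26.2 to 34.4 CPM). FR1_2 was high in PSME4 at 86.6 CPM (59.7 to 63.8 CPM) and low in PSMB3 at 39.0 CPM (49.5 to 53.4 CPM). In FR3, FR3_3 was high in PSMB7 at 152 CPM (96.0 to 109 CPM) and FR3_5 in ERAP2 at 14.5 CPM (7.52 to 9.52 CPM).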

How the results depend on the processing

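For inseminated against control, 17 genes were called; DESeq2 gave 26, limma-voom 10, limma-voom with a spread per group 2, thresholds of 0.01 and 0.1 gave 7 and 26, leaving out FR1_1, FR1_4, FR2_3 and FR3_4 together gave 11, and leaving out 1 library gave 10 to 27. For FR1 (5 called) relative log expression factors gave 8, DESeq2 13, limma-voom 3, with a spread per group 2, the stricter filter 8, thresholds of 0.01 and 0.1 gave 0 and 9, only the groups compared 0, CONTROL_1 and CONTROL_5 as the only controls 9, without the 4 inseminated libraries 0, and without 1 library 2 to 11. For FR2 (13 called) DESeq2 gave 24, limma-voom 7 in both forms, the thresholds 2 and 22, only the groups compared 0, without the 4 inseminated libraries 6, and without 1 library 5 to 21. For FR3 (2 called) DESeq2 gave 5, limma-voom 0 in both forms, no filter 1, a threshold of 0.01 gave 0, only the groups compared 0, CONTROL_1 and CONTROL_5 alone 0, without the 4 inseminated libraries 0, and without 1 library 0 to 5. A fit of only the groups compared is the same fit for inseminated against control. The cause of these changes was not tested, and the shares of all genes called in the alternative fits are not given here. With CONTROL_1 and CONTROL_5 as the only controls the sign turned in SLA-2 (0.031), SLA-7 (0.13), SLA-DRA (0.35), SLA-DRB1 (0.22), SLA-DQA1 (0.49), SLA-DQB1 (0.18), SLA-DMB (0.33), SLA-DOA (0.17), SLA-DOB (0.70), NLRC5 (0.24), CIITA (0.59), GBP1 (0.25), CXCL10 (0.42) and PSME3 (-0.091). Leaving out 1 library turned it in SLA-DRA (-0.56 to 0.13), SLA-DOA (-0.78 to 0.13), SLA-DOB (-0.78 to 0.073) TAP1 (-0.50 to 0.046) and CXCL10 (-2.84 to 0.11) without CONTROL_3, SLA-DQA1 (-0.52 to 0.078) without CONTROL_4 and PSME3 (-0.054 to 0.27) without CONTROL_5. No paired analysis was possible because the labels number the sows from 1 to 20 with no number shared between groups, and the column numbers are not tied to sows.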
